A study of Mus musculus with 2 samples.

Results

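The genes described here encode the proteasome and one family of enzymes that act before it. They are the 106 protein-coding genes of the GENCODE basic annotation (release M21, GRCm38) whose symbols begin with Psm, a letter from a to g and a digit (50 genes), or with Usp and a digit (56 genes), of 21938 nuclear protein-coding genes in all. A gene was called bound when the summit of a YY1 peak lay within 1000 bp of the start of any of its transcripts. The peaks come from 1 YY1 ChIP-seq library of muscle stem cells (MuSCs) and were called by the authors with MACS2 on mm10 against 1 background library. The labels call it input and the Methods input (IgG). According to the study the cells were freshly isolated and pooled from several Ctrl mdx mice (Pax7CreERT2/R26YFP; Yy1+/+; mdx), a dystrophic strain in which the Cre and the reporter mark cells that express Pax7, and which kept a functional Yy1 gene. The sample labels instead speak of wild-type MuSCs and describe a culture medium. The age of these mice is not given in the sources used here. There are no replicates and no second condition, so no value has an error between mice, and the intervals below cover counting error only. A peak list holds no expression, so the labelled cell type was not checked from it.

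The proteasome is the large protease that degrades proteins tagged with chains of ubiquitin. Its 20S core is a barrel of alpha and beta rings, with the proteolytic sites on the inner beta rings, and the 19S cap recognises, unfolds and feeds in the tagged protein with a ring of ATPases and a lid. Usp genes encode the ubiquitin-specific proteases, the largest family of deubiquitinases, which remove or trim ubiquitin and so reverse the tag. In muscle, this system is known for the breakdown of myofibrillar proteins during wasting, and in muscle stem cells for its part in survival and in the control of quiescence. YY1 is a zinc-finger protein that binds near transcription start sites and can act as activator, repressor or organiser of loops.

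The list holds 4681 peaks. For each one the peak caller gave a p-value, a q-value (the p-value adjusted over the genome) and a fold enrichment, which is the number of YY1 fragments at the summit over the number expected there from the background library, with 1 added to each. The fragments and the expected number, called local background here, were recovered from the fold enrichment and the p-value for all 4681 peaks. They point to a library of about 13357713 fragments. That is close to the number of uniquely mapping reads that the study reports, from paired-end sequencing, so a fragment here may be a single read. Mates counted apart would not be independent, which the intervals below do not cover. At the most frequent local background (1.54), a summit needed at least 8 fragments, a fold enrichment of 3.55, to enter the list. A weaker site was not detectable at this depth, so a gene called unbound may still have one.

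YY1 peaks were present at the promoters of both gene sets. Of the 50 Psm genes 22 were bound (44%, 95% exact binomial interval 30% to 58.7%), and of the 56 Usp genes 24 (42.9%, 29.7% to 56.8%), while 18.8% of all nuclear protein-coding genes were bound by the same rule. With peaks of fold enrichment 5 or more alone, 11 Psm genes (22%) and 19 Usp genes were bound, beside 11.1% of all protein-coding genes. Without that limit they made 46 of 106 genes (43.4%), each with a peak of its own. The symbols take in 2 genes whose products are neither proteasome components nor deubiquitinases. Psmc3ip, a cofactor of meiotic recombination, was not bound, and Usp6nl, a GTPase-activating protein, was bound. Without them the numbers were 22 of 49 and 23 of 55. The members were a chosen list, so no test of enrichment was made.

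The kind of promoter moved with binding. A promoter window of 300 bases, 250 before a start and 50 from it on, was called CpG-rich when its GC content was at least 50% and its ratio of observed to expected CpG at least 0.6, in any of the windows of a gene. Such a window was present at 81 of the 106 members, of which 45 were bound (55.6%), beside 34.6% of all 10920 protein-coding genes with one. Without one, 1 of 25 members was bound, Psmd3, beside 3.09% of 11018 genes. Of the Psm genes 38 had a CpG-rich window and 21 of them were bound, and of the Usp genes 43 had one and 24 were bound. The part of base composition in the shares above was not tested.

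**Figure D1:**
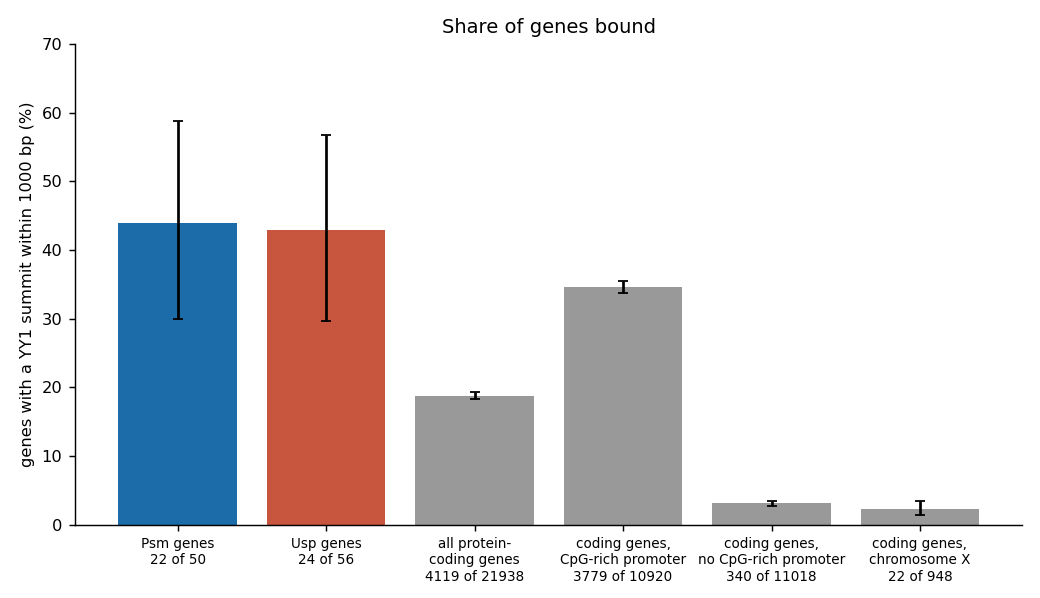
Bars give the percentage of genes with a YY1 summit within 1000 bp of a transcript start, for the 50 Psm genes, the 56 Usp genes and 4 sets of all protein-coding genes, and error bars give 95% exact binomial intervals, which cover counting error only. The Psm and Usp bars stand at 44% and 42.9%, above all protein-coding genes (18.8%). Their intervals include the 34.6% of genes with a CpG-rich promoter, a class that only 38 Psm and 43 Usp genes belong to. Of those, 21 Psm genes (55.3%) and 24 Usp genes (55.8%) were bound.

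AANATGGC is the form of the motif that the study names. Matches on either strand were counted when they lay at most 100 bp from a summit, and they were found at 9 of the 46 bound members (19.6%, 95% exact binomial interval 9.36% to 33.9%), beside 7.55% of the 3777 peaks at protein-coding starts. The 9 stretches, each 30 bases long with the motif in capitals and read 5′ to 3′ on the strand of the motif, are shown so that their flanks can be compared. They were read from the GRCm38 reference of RefSeq.
Psmd11 (chr11:80428651-80428680, plus strand): gtgagagcggtAAGATGGCggccgcagcgg
Psmd8 (chr7:29180438-29180467, minus strand): ccgcatcacggAAGATGGCggccacagcgg
Psma4 (chr9:54950801-54950830, minus strand): catccgcggcgAATATGGCtcccgcgcgtg
Usp15 (chr10:123196900-123196929, minus strand): gctagtggaagAAGATGGCggaaggcggag
Usp10 (chr8:119910838-119910867, plus strand): tgtgcggcgagAAGATGGCggcgacgggag
Usp44 (chr10:93833856-93833885, plus strand): ctgtgagcgctAAAATGGCtgctcgggctc
Usp6nl (chr2:6322640-6322669, plus strand): ccgcccgcgccAAGATGGCggcggccgcgg
Usp34 (chr11:23306284-23306313, minus strand): cgggtgagtggAAGATGGCggaggctgcgg
Usp7 (chr16:8738901-8738930, plus strand): agctcgctctcAAAATGGCggcggcgtgaa

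The form AAGATGGC was present at 6 of these 9 members (13% of the 46), beside 4.05% of the peaks at protein-coding starts. At Psmd11, Psmd8 and Usp15 its ATG is the annotated start codon of the gene itself, so that the site lies across the junction of leader and coding sequence. An annotated start codon in the motif was found at 33.2% of all 334 bound protein-coding genes with the motif near the summit, beside 3 of 9 here. The motif lay on the strand of the gene and up to 100 bp downstream of its start at 5 of the 9 members, beside 31.7% of those 334 genes. At these 5 the first base of the motif, on its own strand, lay 25 bp downstream of the start at Psmd8, 35 bp at Usp10 and Usp15, 37 bp at Psmd11 and 49 bp at Usp44. At Psma4 the motif lay on the opposite strand with its first base 29 bp downstream, and at Usp6nl on the strand of the gene 16 bp upstream of the start. At Usp34 and Usp7 it lay on the opposite strand, 593 and 570 bp upstream of the nearest start. The core ATGGC alone was present at 21 of the 46 bound members (45.7%), beside 30.6% of the peaks at protein-coding starts.

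The same letters occurred at members without a peak. AANATGGC was found in a promoter window of 8 of the 60 unbound members (13.3%) and of 10 of the 46 bound ones (21.7%), beside 9.07% of all protein-coding genes. At the genes of 3 core and cap subunits with no peak the ATG of the motif is again the annotated start codon, as in the following stretches, shown on the strand of the gene for comparison with those above.
Psmb5 (chr14:54617976-54618005, minus strand): tgcccttgctaAACATGGCgctggctagcg
Psmb6 (chr11:70525383-70525412, plus strand): agtagcagaggAAGATGGCggccgccttag
Psmc5 (chr11:106256177-106256206, plus strand): ccgagagagggAAGATGGCgcttgatgggc
Psmb5 and Psmb6 encode catalytic beta subunits and Psmc5 an ATPase of the cap. The peaks nearest to their starts lay 14.7, 37.3 and 16.6 kb away. The promoter of Psmb5 also held matches 64, 149 and 248 bp upstream of its start, the last as AAGATGGC. The windows of Usp11, Usp21, Usp24, Usp54 and Usp9y also held the motif without a peak.

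In the 20S core, 5 of the 7 genes of the alpha ring, which gates the barrel, were bound (95% exact binomial interval 29.0% to 96.3%), with a median fold enrichment of 4.21. All 7 had a CpG-rich window, and the interval includes the 34.6% of all genes with one. Of the 7 beta genes 2 were bound (3.67% to 71.0%), so the intervals of the rings overlapped. Psma2 had the highest fold enrichment of the core, 5.56, from 14 fragments at the summit over a local background of 1.70 (chromosome 13, 14612962 to 14613294, q = 4.62e-06), with the summit 152 bp upstream of its start. Psma7 followed with 4.73 from 11 fragments, and Psma3 with 4.21 from 10. Psma4 (chromosome 9, 54950721 to 54950953, q = 0.000451, 67 bp downstream) and Psma6 each had 15 fragments over 2.96 and a fold enrichment of 4.04. The Psma6 summit lay at a start inside the gene record, and the gene was not called bound when 1 start per gene was used. Psma1 and Psma5 were not bound, and their nearest summits lay 21.4 and 46.5 kb away.

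Of the beta genes, Psmb1 had 13 fragments over 2.34 (fold enrichment 4.20) and Psmb2 22 fragments over 4.94 (3.87). The Psmb2 summit thus held more fragments than that of any bound alpha gene, over the highest local background among the bound members. Psmb3, Psmb4, Psmb5, Psmb6 and Psmb7 had no peak, and Psmb4 and Psmb7 had no CpG-rich window. The 5 genes of tissue-specific cores had no peak either (95% exact binomial interval 0% to 52.2%, which includes the 18.8% of all protein-coding genes). These are Psmb8, Psmb9 and Psmb10 of the immunoproteasome, which interferon induces, Psmb11 of the thymus and Psma8 of the testis. Their nearest summits lay 62.4, 52.4, 27.2, 16.1 and 23.2 kb from a start.

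The highest fold enrichments of the bound Psm genes were at the 19S cap, whose bound genes ranged from 3.70 to 8.68. The counting interval of the highest, Psmd1, overlapped those of 20 of the other 21 bound Psm genes. Of its 6 ATPase genes 4 were bound (95% exact binomial interval 22.3% to 95.7%) with a median fold enrichment of 5.64, and of 11 non-ATPase genes 6 (23.4% to 83.3%), with a median of 4.90. Both intervals lie above the 18.8% of all protein-coding genes and include the 34.6% of those with a CpG-rich window. Such a window was present at 5 of the 6 ATPase genes (4 bound) and 8 of the 11 non-ATPase genes (5 bound). Psmd1, a large scaffold subunit of the base, had a fold enrichment of 8.68 from 21 fragments over 1.54 (chromosome 1, 86064275 to 86064795, q = 2.35e-13). Psmd12, a lid subunit, had 8.59 from 24 fragments over 1.91 (chromosome 11, 107479354 to 107479720, q = 1.23e-14). Their summits lay 21 and 19 bp upstream of the nearest start, and 97.1% and 96.9% of all peaks had a lower fold enrichment. Neither peak held AANATGGC near its summit, while the Psmd12 peak held the core ATGGC.

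The ATPases form the ring that unfolds the substrate. Psmc2 had 19 fragments over 1.98 and a fold enrichment of 6.72 (chromosome 5, 21785077 to 21785440, q = 1.85e-09). Psmc3 had 16 over 1.98 and 5.71 (chromosome 2, 91053931 to 91054227, q = 6.98e-07), and Psmc6 had 14 over 1.70 and 5.56 (chromosome 14, 45329632 to 45330048, q = 4.62e-06). Psmc4 had 13 fragments over 1.54 and 5.52 (chromosome 7, 28050082 to 28050333, q = 1.07e-05). The summits of Psmc2, Psmc3 and Psmc4 lay 41, 17 and 115 bp upstream of a start and that of Psmc6 79 bp downstream. Psmc1 and Psmc5 had no peak.

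Among the other non-ATPase genes, Psmd3 of the lid had 21 fragments over 3.19 and a fold enrichment of 5.26. Psmd7 had 17 over 2.96 and 4.54, while Psmd14, whose product is its partner in the lid and the deubiquitinase of the cap, was not bound. Psmd8 had 15 fragments over 2.96 and a fold enrichment of 4.04 (chromosome 7, 29180296 to 29180647, q = 0.000451), with its summit 27 bp downstream of the start and 2 bp from the centre of the motif shown above. Psmd11 was near the limit of the list, with 10 fragments over 1.98, a fold enrichment of 3.70 and q = 0.0144 (chromosome 11, 80428541 to 80428800), and its summit lay 78 bp downstream of the start. Psmd2, Psmd4, Psmd6, Psmd13 and Psmd14 had no peak. Psmd8 and Psmd11, the 2 lowest of the bound cap genes, were those with AANATGGC within 100 bp of the summit, and the Psmd7 peak held it farther from its summit.

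Around the core and cap, 3 of 6 genes of activators and inhibitors were bound (95% exact binomial interval 11.8% to 88.2%, which includes the 18.8% of all protein-coding genes). Psme3, which encodes the nuclear activator PA28 gamma, had 14 fragments over 1.54 and a fold enrichment of 5.92 (chromosome 11, 101315914 to 101316308, q = 1.50e-06), 97 bp upstream of the start. Psme4, the activator PA200, had 11 over 1.61 and 4.59. Psme1, an interferon-induced subunit of PA28, had the lowest fold enrichment of all bound members, 3.03 from 14 fragments over 3.95 (chromosome 14, 55578344 to 55578852, q = 0.0289), 62 bp upstream of a start. Its partner Psme2 had no peak, with the nearest summit 12.6 kb away, and neither Psme2b nor the inhibitor gene Psmf1 had one. Of the 7 assembly chaperones 2 were bound (28.6%, 3.67% to 71.0%, which includes it too), namely Psmd5, which helps to build the base, with a fold enrichment of 5.05 from 19 fragments, and Psmg2, which helps to build the core, with 5.03 from 13. The Psmd5 summit lay at a start inside the gene record, and Psmd5 was not called bound when 1 start per gene was used. Psmd9, Psmd10, Psmg1, Psmg3 and Psmg4 had no peak.

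**Figure D2:**
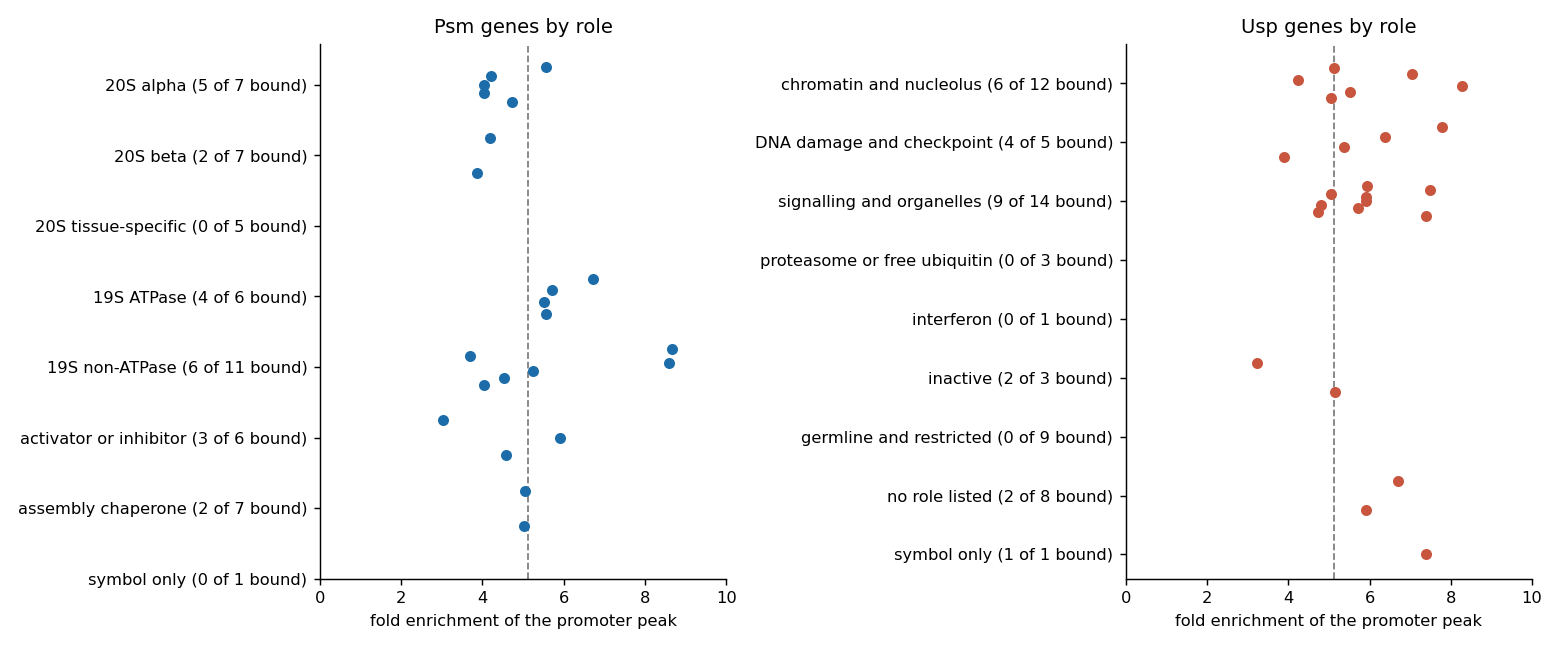
Each point is the fold enrichment of the YY1 peak at a bound gene, for Psm genes on the left and Usp genes on the right, with genes grouped by role and the number bound beside each role. The dashed line marks 5.13, the median over all bound protein-coding genes, and the points of the 20S genes lie mostly to its left (3.87 to 5.56), while those of the ATPase genes lie to its right.

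The deubiquitinases of chromatin and the nucleolus were bound at 6 of 12 genes (95% exact binomial interval 21.1% to 78.9%), beside 18.8% of all protein-coding genes and 34.6% of those with a CpG-rich window, which 10 of the 12 had. Usp42, which removes ubiquitin from histones, had the strongest peak of the Usp genes, with 20 fragments over 1.54 and a fold enrichment of 8.28 (chromosome 5, 143732181 to 143732587, q = 2.75e-12), 94 bp upstream of the start. Usp3, an enzyme for histones H2A and H2B, had 18 over 1.70 and 7.04 (chromosome 9, 66592700 to 66593225, q = 1.43e-09), 26 bp upstream. Usp44 had 13 over 1.54 and 5.52 (chromosome 10, 93833713 to 93833958, q = 1.07e-05), 70 bp downstream of a start inside the gene record. Usp7, which stabilises Mdm2 and p53, had 14 over 1.98 and 5.04 (chromosome 16, 8738722 to 8739155, q = 2.59e-05), 484 bp upstream of a start inside the gene record. Usp16, an H2A enzyme, had 15 fragments and 5.12, and the nucleolar Usp36 had 14 and 4.23. Usp11, Usp21, Usp22, Usp27x, Usp49 and Usp51 were not bound. Of these Usp22, the deubiquitinase of the SAGA coactivator, had its nearest summit 296 kb away.

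Of the 5 genes listed for DNA damage and checkpoints, all with a CpG-rich window, 4 were bound (95% exact binomial interval 28.4% to 99.5%, which includes the 34.6% of that class). Usp1, which deubiquitinates Fancd2 and PCNA, had the most fragments of all members, 25 over 2.34, with a fold enrichment of 7.79 (chromosome 4, 98923514 to 98924305, q = 9.69e-14), 91 bp upstream of the start. It was also the only member with a further peak in its window, 759 bp upstream, of 13 fragments and a fold enrichment of 4.48. Usp28 had 18 fragments over 1.98 and 6.39 (chromosome 9, 48984928 to 48985627, q = 1.41e-08), with the summit 1 bp downstream of a start. Usp47 had 15 fragments and 5.38, and Usp48 had 17 over 3.61 and 3.90. Usp45 had its nearest summit 2067 kb away.

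Among 14 genes of signalling, membrane traffic and organelles 9 were bound (95% exact binomial interval 35.1% to 87.2%), with a median fold enrichment of 5.92. A CpG-rich window was present at 13 of the 14, a class with 34.6% bound among all protein-coding genes. Usp12 had 18 fragments over 1.54 and 7.49 (chromosome 5, 146794481 to 146795286, q = 2.93e-10), 8 bp upstream of the start, in the widest peak of the members (806 bp). Usp8, an enzyme of endosomal sorting, had 21 over 1.98 and 7.39 (chromosome 2, 126707107 to 126707468, q = 2.58e-11), 87 bp upstream. Usp10 had 15 over 1.70 and 5.93 (chromosome 8, 119910671 to 119911230, q = 6.98e-07), 24 bp upstream of a start. Usp20 and Usp25 each had 14 fragments over 1.54 and 5.92. Usp34 had 16 over 1.98 and 5.71 (chromosome 11, 23306171 to 23306559, q = 6.98e-07), Usp15 had 19 over 2.96 and 5.05 (chromosome 10, 123196670 to 123197126, q = 9.27e-07, 32 bp downstream), Usp32 had 13 and 4.81, and Usp46 had 11 and 4.73. Usp4, Usp9x, Usp19, Usp30 and Usp33 were not bound.

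The 3 Usp genes listed for the proteasome and free ubiquitin had no peak, a count too small to set apart from the 18.8% of all protein-coding genes (95% exact binomial interval 0% to 70.8%). These are Usp14, which sits on the cap, Usp5, which disassembles unanchored chains, and Usp13, its paralogue, with nearest summits 72.0, 83.6 and 80.5 kb away. Usp18, the interferon-induced protease for ISG15, had its nearest summit 136 kb away. Of 3 members that the role list used here groups as inactive, Usp53 (fold enrichment 5.15, 14 fragments) and the splicing factor Usp39 were bound and Usp54 was not. Usp39 had 15 fragments over 3.95, 3.23 and q = 0.0101 (chromosome 6, 72345086 to 72345346), 10 bp upstream of the start. None of the 9 germline or restricted genes was bound (Usp9y, Usp26, Usp29, Usp50 and the 5 Usp17l copies), and none of these had a CpG-rich window, a class in which 3.09% of all protein-coding genes were bound. Of the other 47 Usp genes 24 were bound (51.1%), and 43 of these 47 had a CpG-rich window, a class with 34.6% bound among all protein-coding genes. The Usp17l copies are closely related, and reads that map to several of them could be lost or shared.

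Of the 8 Usp genes given no role here, Usp31 had 16 fragments over 1.54 and a fold enrichment of 6.70 (chromosome 7, 121706929 to 121707527, q = 2.44e-08), 171 bp downstream of the start, and Usp35 had 14 over 1.54 and 5.92. Usp2, Usp24, Usp37, Usp38, Usp40 and Usp43 had no peak in the window. Usp6nl, which is no deubiquitinase, had 21 fragments over 1.98 and 7.39 (chromosome 2, 6322504 to 6322817, q = 2.58e-11), 2 bp downstream of its start.

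The Usp genes include 14 sets of paralogues, chosen after their values were seen. All genes were bound in 4 sets, some in 7 and none in 3, beside 42.9% of Usp genes bound, and with so few sets nothing is read from the split. Usp12 and Usp46, Usp25 and Usp28, Usp7 and Usp47, and Usp36 and Usp42 were bound throughout. Usp20 was bound and Usp33 was not, as with Usp44 and Usp49, Usp16 and Usp45, Usp53 and Usp54, Usp31 and Usp43, and Usp35 and Usp38. Of Usp4, Usp11 and Usp15, Usp15 was bound. Usp5 and Usp13, Usp9x and Usp9y, and the 3 genes Usp22, Usp27x and Usp51 had no peak.

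Fold enrichments differed between the sets in their medians. The median was 4.88 at the 22 bound Psm genes (range 3.03 to 8.68) and 5.81 at the 24 bound Usp genes (3.23 to 8.28), beside 5.13 over all 4119 bound protein-coding genes. Above that median lay 9 of the 22 Psm genes and 16 of the 24 Usp genes. The median number of fragments was 14.5 and 15, and ranged from 10 to 24 and from 11 to 25. These counts are small. With the local background taken as fixed, the 95% exact Poisson interval of the fold enrichment was 5.52 to 13.1 at Psmd1, and it overlapped those of 20 of the other 21 bound Psm genes, all but Psme1 (1.75 to 4.95). The interval of Usp42 (5.21 to 12.6) likewise overlapped those of 22 of 23, all but Usp39 (1.90 to 5.20). Most neighbours in the order were thus not told apart at this depth.

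**Figure D3:**
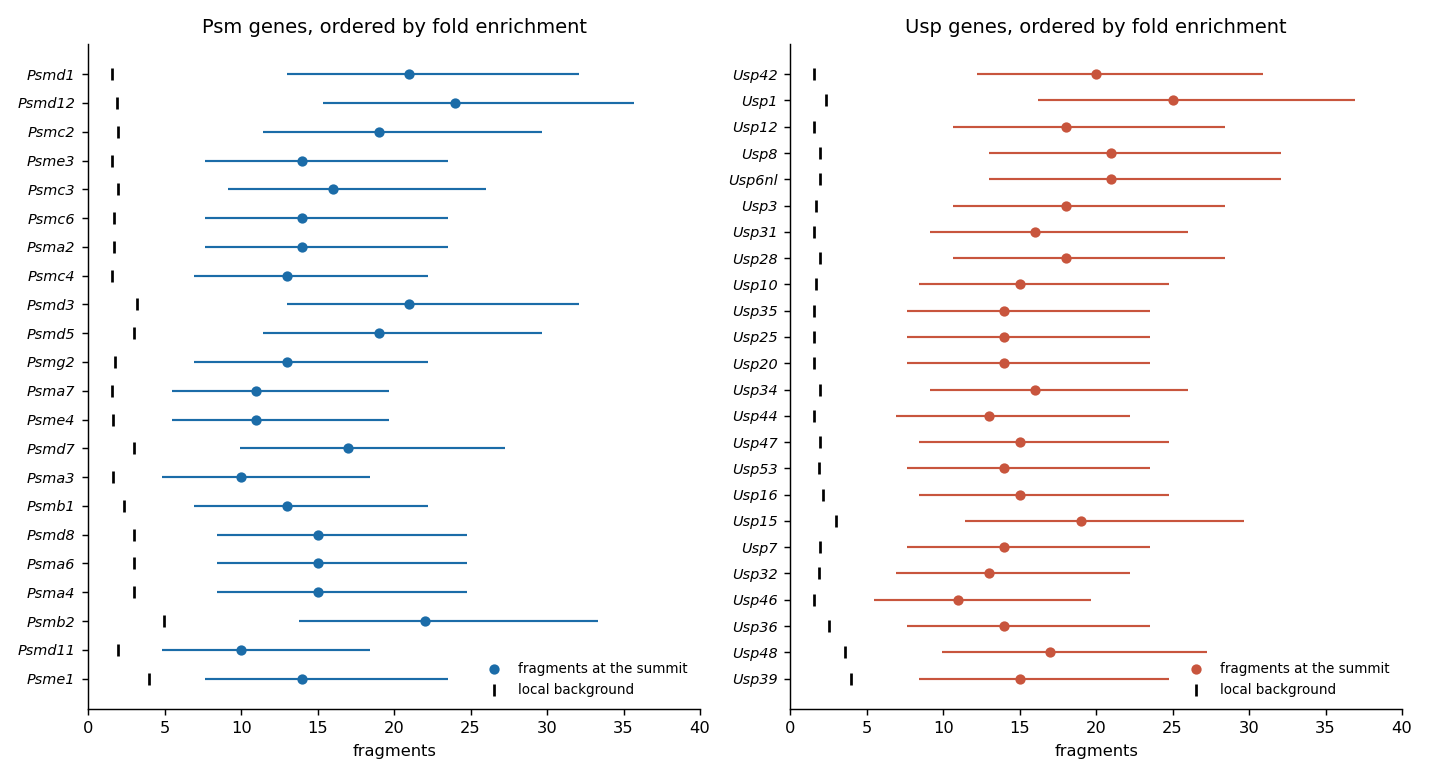
Points give the number of fragments at the summit of each bound gene, horizontal lines their 95% exact Poisson intervals, which cover counting error only, and short black bars the local background, with genes ordered by fold enrichment from the top. The points lie between 10 and 25 fragments with widely overlapping intervals, and genes low in the order such as Psmb2, Psme1 and Usp39 stand over higher local backgrounds (4.94, 3.95 and 3.95).

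The summits lay close to the starts. The median distance from the nearest start of the gene was 64.5 bp at Psm genes and 89 bp at Usp genes, beside 107 bp over all bound protein-coding genes. Within 100 bp lay 17 of 22 Psm summits (77.3%) and 14 of 24 Usp summits (58.3%), beside 47.9% of all bound protein-coding genes. The farthest Psm summit, at Psma2, was 152 bp from the start, whereas Usp summits reached 539 bp. Upstream of the start lay 31 of the 46 summits, beside 50.9% for all. By the basic annotation, 20 summits lay in an exon of the member, 2 in an intron (Psma3 and Usp7) and 24 upstream of every basic transcript (43.5%, 4.35% and 52.2%). Among these 24, the summits of Psmd1, Psmd5 and Usp48 still lay inside the gene record, which extends beyond the basic transcripts. Over all bound protein-coding genes, 45.2% lay in an exon, 13.4% in an intron and 41.5% outside every basic transcript of the gene. At the limit of 1000 bp no member was close to the edge from within: the farthest bound members were Usp34 (539 bp) and Usp7 (484 bp, at a start inside the gene), and the nearest unbound ones were Usp9x (1110 bp) and Usp49 (1252 bp).

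**Figure D4:**
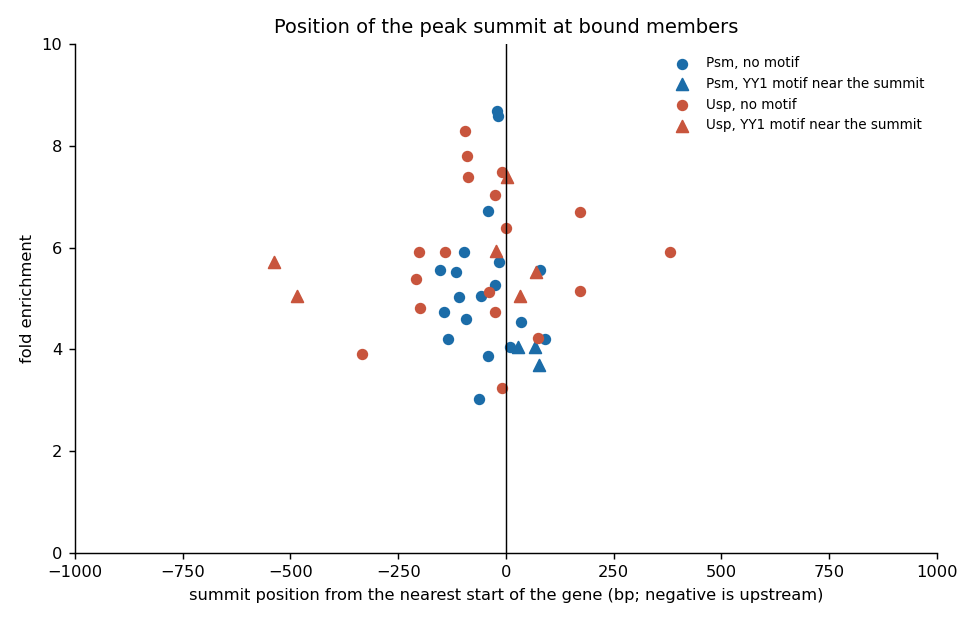
Each point is a bound member, placed by the position of its summit relative to the nearest start of the gene (bp, negative is upstream) and by its fold enrichment, with triangles for peaks that hold the YY1 motif within 100 bp of the summit. All 22 Psm summits lie within 152 bp of a start and the Usp summits reach 539 bp upstream and 381 bp downstream, and the triangles range from 3.70 (Psmd11) to 7.39 (Usp6nl).

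Some of these promoters are shared. At 14 of the 46 bound members (30.4%) the summit also lay within 1000 bp of the start of another gene, beside 39.7% of all bound protein-coding genes. At 9 of them (19.6%) the other gene is protein-coding, beside 25.7% of all. For 6 members the summit was nearer to the other gene than to the member. The Psmb1 summit lay 2 bp from the start of Tbp, which encodes the TATA-binding protein, and 135 bp from that of Psmb1. Those of Psmc2, Psma7, Psma2 and Usp35 lay 9, 68, 77 and 105 bp from Dnajc2, Ss18l1, Mrpl32 and Kctd21, and that of Usp31 7 bp from an antisense transcript. Psma4, Psmg2, Usp20 and Usp10 shared their summits with AY074887, Cep76, BC005624 and Gm20388. At such promoters the peak cannot be given to 1 gene, and the remaining 32 members shared their summit with no other gene.

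Of the members on chromosome X (Psmd10, Usp9x, Usp11, Usp26, Usp27x and Usp51) 0 of 6 were bound, beside 2.32% of the 948 protein-coding genes of that chromosome. Chromosome X held 34 of the 4681 peaks. The gene body of Usp9x contains 1 peak, which lies in an intron from 13072230 to 13072675, 1110 bp downstream of the start. It had 10 fragments over 1.54, a fold enrichment of 4.34 and q = 0.00236, and held AANATGGC near its summit. This stretch is shown because it would make Usp9x the bound member of chromosome X under a window of 2000 bp.
Usp9x (chrX:13072571-13072600, plus strand): gactggcagggAAAATGGCtgacggctccg
Usp2 was the other member with a peak in its body outside the window, in an intron 5719 bp from the nearest start, of 12 fragments and a fold enrichment of 5.13.

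The wider pathway was read from a list of 61 genes, of which 60 were matched. Of these 28 were bound (46.7%), with a median fold enrichment of 5.44, beside 18.8% of all protein-coding genes. Of the genes that control proteasome transcription, Nfe2l2 (fold enrichment 5.12), the protease gene Ddi2 (7.49) and the deglycosylase gene Ngly1 (5.38), whose products release and activate Nfe2l1, were bound, and Nfe2l1 itself, which encodes the factor that induces proteasome genes when the protease is inhibited, was not. The polyubiquitin gene Ubb was bound (4.30), and Rps27a, which encodes ubiquitin fused to a ribosomal protein, was not. The activating enzyme gene Uba6 was bound (4.48) and Uba1, on chromosome X, was not. Of 13 matched genes of proteasome partners 7 were bound, among them the shuttle factors Ubqln1 (5.50) and Rad23b (2.60, q = 0.0575) and the nuclear import factor Akirin2 (5.58). The cap genes Adrm1 and Sem1 and the maturation factor gene Pomp were not bound.

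Of 37 further genes, of other deubiquitinase families or related to the Usp genes under other symbols (Cyld, Uspl1 and Pan2), 14 were bound (37.8%), beside 18.8% of all protein-coding genes. Of the related genes, Uspl1 encodes a SUMO protease and Pan2 a subunit of a deadenylase, so neither is a deubiquitinase. Bap1, the tumour suppressor that acts on H2A, and Uspl1 each had 27 fragments over 1.54 and a fold enrichment of 11.04, above the highest Usp gene. Of the 4 UCH genes 3 were bound (Bap1, Uchl5 and Uchl3), and of the 16 OTU genes 8, from Otud1 (7.73) and Otub1 (6.56) to Otulin (4.03). None of the 6 JAMM and 3 Josephin genes listed was bound. Counts this small cannot be set apart from the 18.8% of all protein-coding genes. One of 5 MINDY and ZUP1 genes was bound, Mindy2 (5.55). Cyld, a regulator of NF-kB signalling, had a summit 829 bp downstream of a start with 9 fragments and a fold enrichment of 3.68.

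Motifs of other factors that are known to act on proteasome promoters were counted in the promoter windows, on both strands and in any window of a gene. TGACNNNGC, the core of the antioxidant response element that Nfe2l1 and Nfe2l2 bind, was present at 10 of the 50 Psm genes (20%) and 12 of the 56 Usp genes (21.4%), beside 17.2% of all protein-coding genes. CCAAT, the box bound by NF-Y, was present at 16 of the 46 bound members (34.8%) and 26 of the 60 unbound ones (43.3%), beside 46.6% of all protein-coding genes.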

How the data were processed

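YY1 ChIP-seq was done on MuSCs of pooled mice, 1 YY1 library against 1 background library, which was not analysed here on its own. The sources differ on genotype and culture, and the labels do not name the background as IgG, as given above. Per the Methods, after trimming and quality filtering the authors aligned reads to mm10 (Bowtie2), discarded redundant ones and ran MACS2 with a limit of p = 0.0001. Versions are not given in the sources used here. The deposited values are the coordinates and summit of a peak, a fold enrichment (a ratio with 1 added to both numbers), the −log10 of its p-value and of its q-value, and a score, which the authors' peak caller derives from the p-value and which was not used.

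Peaks were assigned to the starts of GENCODE M21 basic transcripts, the genes of the mitochondrial genome left out. Fragments at the summit and local background were solved from fold enrichment and p-value, with a tolerance of 0.001 in −log10 p. The commonest local background also gave the size of the library, with the narrowest peak (215 bp) taken as the fragment length and the mouse genome size that MACS2 uses, so it is an estimate. Motifs and base composition were read from GRCm38. No test was made, since there is 1 library: shares have exact (Clopper-Pearson) binomial intervals and fragments exact Poisson intervals, which cover counting error only. PCR copies without molecular identifiers are not independent molecules. The steps were checked on simulated data. Alternatives changed the peak threshold, the window, the overlap, the starts, the members and the motif.

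The members and the lists of roles and pathway genes were chosen with earlier results of these data known. The paralogue sets, the CpG split and the look at start codons were added after the values were seen. Some genes of the pathway list are not reported here by name. Every bound member is named. Full values are given for the 8 bound Psm and the 8 bound Usp genes of highest fold enrichment, the 3 lowest, those with AANATGGC near the summit, and, for distance, those next to the limit. Sequences were read with samtools 1.23.1 and pysam 0.24.0, tables handled with pandas 2.3.3 and numpy 2.4.6, intervals computed with scipy 1.17.1 and plots drawn with matplotlib 3.10.9, in Python 3.11.15.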

Additional observations from a re-analysis of the deposited data

How the results depend on the processing

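Of 74 values of the members under another setting, 71 stayed within 1.5 times the reported count or within a counting interval, and 3 moved. A number and the percent from it were counted as separate values. Median fold enrichments were set against the interval of a single peak with the median number of fragments, which is too wide to judge a median. That they stayed inside it therefore says little. When the fold enrichment had to reach 5, 11 Psm genes (22%) and 19 Usp genes were bound, beside 11.1% of all protein-coding genes. With ATGGC in place of AANATGGC, 45.7% of the peaks at bound members held the motif, beside 30.6% of all peaks at protein-coding starts. A peak limit of q = 0.01 left out Psmd11, Psme1 and Usp39. A window of 500 bp left out Usp34 and one of 2000 bp took in Usp9x and Usp49. Ending the window 100 bp downstream left out Usp25, Usp31 and Usp53. The use of 1 start per gene left out Psma6, Psmd5, Usp7 and Usp44, and curated RefSeq starts left out Psmb1 and Usp44. The motif share was 13% within 50 bp of the summit (3.94% of all) and 28.3% within 200 bp (14% of all). No paired analysis was possible because a lone YY1 library has no partner, and no result comes from a test. The depth limits weak sites and the order of the peaks, and no value has a spread between mice.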
